A study of Mus musculus with 9 samples.

Results

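The interleukin-1 system of the mouse liver was followed through 10 genes, taken as the rows of an expression table whose symbols were Il1a, Il1b, Il33, Il18, Casp1, Il1rn, Il18bp, Il1r1, Il1rap and Il1r2. They were 10 of the 16857 genes in that table. The rows were taken by symbol alone, but the members were chosen with earlier results of these data known. All mice had received acetaminophen (APAP), a drug that injures the liver at high dose, and then either leonurine, a plant alkaloid, or saline; the design asks whether leonurine acts through AdipoR2, an adiponectin receptor. The groups were wild-type mice given saline (n = 3 libraries), wild-type mice given leonurine (n = 2), mice labelled as Adipor2 knock-out and given saline (n = 2), and mice so labelled and given leonurine (n = 2). Every group carried the APAP injection, so no comparison has an uninjured liver in it. The labels do not give strain, age, sex, dose, time of sampling or how the Adipor2 allele was made. RNA came from liver. The labels do not tie libraries to animals, so a p-value here measures the spread between libraries, which may be technical.

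Interleukin-1α and interleukin-1β are related cytokines that signal through the same receptor, the product of Il1r1, which needs the accessory chain encoded by Il1rap to start the signal. The receptor antagonist, the product of Il1rn, binds that receptor without recruiting the accessory chain, and the product of Il1r2 is a decoy receptor that holds interleukin-1 without signalling. Interleukin-18 is a cousin of interleukin-1β that is captured by the soluble binding protein encoded by Il18bp, and interleukin-33 is a nuclear cytokine released from damaged cells that acts through the receptor ST2. Caspase-1, the protease of the inflammasome, cuts the precursors of interleukin-1β and interleukin-18. In the injured liver these genes are known from resident and recruited phagocytes, hepatocytes, endothelial cells and stellate cells. Transcript levels do not report cleavage, secretion or receptor occupancy.

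The promoters of 3 members are shown because Il1rn and Il1r1 gave 2 of the differences in wild-type liver, while Il1b, a ligand of the same receptor, did not pass. Each window is RefSeq sequence of GRCm38.p6, 250 bases before to 50 bases after an annotated start, in the gene's own direction. Capitals mark matches on either strand to GGG, then 3 bases of any kind, then TTCC (a pattern of NF-kB), TTNNGNAAT (a pattern of C/EBP factors) or TGANTCA (a pattern of AP-1).
Il1rn, upstream start, chr2:24336610-24336909, plus strand: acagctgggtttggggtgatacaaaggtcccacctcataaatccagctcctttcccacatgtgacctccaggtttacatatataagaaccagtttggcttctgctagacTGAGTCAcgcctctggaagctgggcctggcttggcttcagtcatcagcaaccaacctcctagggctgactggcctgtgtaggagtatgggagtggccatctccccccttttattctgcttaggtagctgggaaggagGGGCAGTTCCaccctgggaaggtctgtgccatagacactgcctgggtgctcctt
Il1rn, downstream start, chr2:24345041-24345340, plus strand: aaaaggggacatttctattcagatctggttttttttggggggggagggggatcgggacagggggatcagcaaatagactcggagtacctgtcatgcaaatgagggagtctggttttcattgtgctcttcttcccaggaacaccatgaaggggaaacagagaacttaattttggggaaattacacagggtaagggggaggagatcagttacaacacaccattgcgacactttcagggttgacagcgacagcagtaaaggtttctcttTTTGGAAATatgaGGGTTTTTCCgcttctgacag
Il1r1, upstream start, chr1:40224830-40225129, plus strand: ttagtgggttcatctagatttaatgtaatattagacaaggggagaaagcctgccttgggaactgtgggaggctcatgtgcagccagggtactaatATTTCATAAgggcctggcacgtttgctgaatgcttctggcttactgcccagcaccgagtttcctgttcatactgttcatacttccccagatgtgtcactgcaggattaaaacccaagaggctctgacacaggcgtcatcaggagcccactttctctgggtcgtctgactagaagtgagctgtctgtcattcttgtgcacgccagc
Il1r1, downstream start, chr1:40266336-40266635, plus strand: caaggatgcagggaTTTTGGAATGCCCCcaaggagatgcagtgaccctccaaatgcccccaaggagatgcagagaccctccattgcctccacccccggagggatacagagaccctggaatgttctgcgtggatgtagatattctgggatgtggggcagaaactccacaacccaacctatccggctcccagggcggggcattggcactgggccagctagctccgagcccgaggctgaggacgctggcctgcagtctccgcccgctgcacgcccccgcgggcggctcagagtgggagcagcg
Il1b, chr2:129371090-129371389, minus strand: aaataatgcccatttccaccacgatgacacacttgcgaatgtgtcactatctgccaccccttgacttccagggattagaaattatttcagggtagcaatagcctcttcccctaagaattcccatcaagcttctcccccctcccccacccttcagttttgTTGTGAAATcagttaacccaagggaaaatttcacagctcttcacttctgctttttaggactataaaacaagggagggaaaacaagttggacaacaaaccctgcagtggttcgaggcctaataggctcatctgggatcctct
With the start base counted as 0, the upstream Il1rn window held an NF-kB match from -4 (GGGCAGTTCC) and an AP-1 match from -141 (TGAGTCA). Its downstream window held a C/EBP match from 16 (TTTGGAAAT) and an NF-kB match from 29 (GGGTTTTTCC). The upstream Il1r1 window held 1 C/EBP match, on the minus strand from -155. In the downstream Il1r1 window the NF-kB match, on the minus strand from -232, overlapped a C/EBP match from -236 (TTTTGGAAT). The Il1b window held a C/EBP match from -91 (TTGTGAAAT) and no match to the other patterns. Il33 and Il18bp, which were also higher with leonurine in wild-type liver, are not shown, and their windows held no match to any of these patterns. All 10 members had at least 1 window, 14 in total. Of these, 4 held the NF-kB pattern, 5 the C/EBP pattern and 2 the AP-1 pattern. A further Il1rn window overlaps the downstream one and shares its NF-kB and C/EBP matches, so these windows are not independent. The NF-kB pattern was in windows of Il1rn and Il1r1 alone. Among all 32851 windows the shares were 5.56% for NF-kB, 11.5% for C/EBP and 7.81% for AP-1. A match describes letters in the window and does not show binding.

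Adipor2, the gene named as knocked out, was measured at 126 to 141 FPKM in wild-type saline liver, 78.5 and 88.2 in wild-type leonurine liver, and 70.1 to 85.0 in the 4 libraries labelled knockout. FPKM is fragments per kilobase of transcript, scaled to the library's depth. The transcript was thus present in the libraries labelled knockout, at levels that overlapped the wild-type leonurine libraries. Which part of Adipor2 was removed is unknown here, so the label could not be checked, and the group is called the labelled knockout. The Y-linked gene Ddx3y lay between 10.2 and 14.7 FPKM in 7 libraries and at 0 in both labelled knockout leonurine libraries, as were Kdm5d and Uty, so in every comparison with that group sex and group cannot be told apart. The first principal component carried 38.3% of the variance. On it the wild-type leonurine libraries stood at 26.4 and 52.2, and the labelled knockout leonurine libraries at -35.0 and -18.1. The saline libraries of both genotypes lay between these groups, from -10.4 to -0.8. Whole fragments recovered from the FPKM values put the depth at 35316653 to 38996734 fragments per library. The liver label was borne out by hepatocyte markers such as albumin, which summed to 33900 to 85020 FPKM. In bulk tissue, fewer cells of a type and less RNA per cell cannot be told apart.

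In wild-type saline liver the signalling receptor chain Il1r1 had the highest level of the 10 genes, at 15.7 ± 2.74 FPKM (SD, n = 3). It was followed by its partner Il1rap at 10.2 ± 1.55 and by Il18bp at 4.92 ± 0.661. Il18 (3.53 ± 0.297) and Il1a (3.17 ± 0.218) came next with overlapping libraries. Il1rn, Casp1, Il1b and Il33 lay lower, between means of 0.896 and 1.93 FPKM, and each overlapped its neighbour in that order. Il1r2 was lowest at 0.142 ± 0.0628. In wild-type leonurine liver the order at the top was Il1r1 at 36.1 ± 3.35, Il1rn at 32.4 ± 31.1 and Il18bp at 9.79 ± 1.21 (n = 2 each), and neighbours in that order overlapped. Il1rap had moved below them, at 5.98 ± 1.71. The labelled knockout saline group kept the saline order for its 4 highest genes. With leonurine, Il1r1 (10.9 ± 4.04) and Il1rap (9.40 ± 0.561) overlapped in the labelled knockout, and Il18bp, Il18 and Il1rn followed. Across all 9 libraries Il1rn had the widest range of the genes that passed the filter, the highest library being 36.5 times the lowest. The narrowest range was that of Il1a, at 2.21 times.

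**Figure D1:**
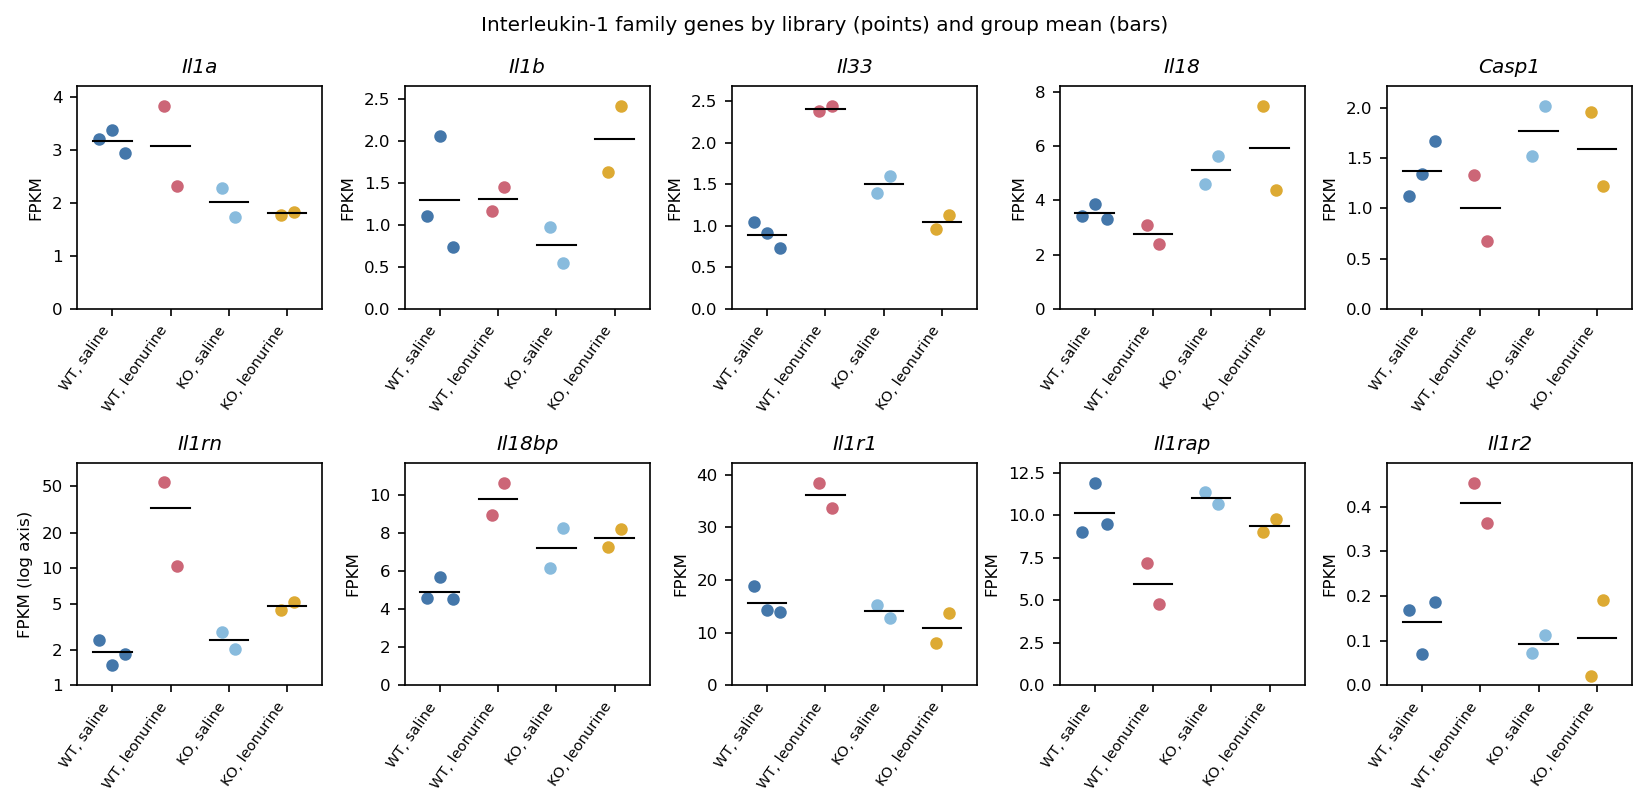
FPKM of the 10 genes (vertical axes, Il1rn on a log axis and the others from 0) in each of 9 libraries, as points, with the group mean as a bar; KO stands for the labelled Adipor2 knockout. The wild-type leonurine libraries lie above all saline wild-type libraries for Il33, Il1rn, Il18bp, Il1r1 and Il1r2, and Il1r2 stays under 0.5 FPKM.

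Differences were tested with limma on log2(FPKM + 1), which understates the change of genes at low levels, and 9 of the 10 members passed the filter of at least 1 FPKM in 2 libraries; Il1r2 did not. Leonurine in wild-type liver went with higher Il33, Il1rn, Il18bp and Il1r1, 4 of 9 members at an adjusted p under 0.05. Among all 10451 genes tested 6.62% passed, 1.9% as higher and 4.72% as lower, and 5 of 9 members had an unadjusted p under 0.05, beside 24.4%. The 9 members had a median log2 difference of 0.04, beside -0.12 for all tested genes. In the labelled knockout 0 of 9 members passed for leonurine against saline, beside 2.1% of all genes (0.603% higher and 1.49% lower), and 1 of 9 had an unadjusted p under 0.05, beside 22.4%. The labelled knockout against wild type under saline also gave 0 of 9, beside 0.0191% of all genes (0.00957% in each direction), with 3 of 9 under an unadjusted 0.05, beside 13.2%. Under leonurine the same comparison gave 4 of 9: Il1r1, Il33 and Il1rn lower and Il18 higher, beside 12.2% of all genes, 6.99% as higher and 5.25% as lower, and 6 of 9 had an unadjusted p under 0.05, beside 28.2%. The difference between the leonurine responses passed for Il33 and Il1r1, 2 of 9, both negative, beside 3.74% of all genes (2.03% negative and 1.71% positive). An unadjusted p under 0.05 was reached by 4 of 9, beside 20.5%.

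The groups' libraries did not overlap for many genes. In wild type all leonurine libraries were above all saline libraries for 4 of 9 tested members (Il33, Il1rn, Il18bp and Il1r1), beside 12.8% of all tested genes. They were below for Il18 and Il1rap, 2 of 9, beside 34.2%. Leonurine libraries of the labelled knockout were above for Il1b and Il1rn, 2 of 9, beside 8.61%, and below for Il33 and Il1rap, 2 of 9, beside 40.8%. Between genotypes under saline the labelled knockout was above for Il33, Il18 and Il18bp, 3 of 9, beside 27.6%, and below for Il1a, 1 of 9, beside 11.1%. Under leonurine it was above for Il1b, Il18 and Il1rap, 3 of 9, beside 25.6%, and below for Il1a, Il33, Il1rn, Il18bp and Il1r1, 5 of 9, beside 26.4%.

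These comparisons share libraries. Leonurine against saline in wild type, leonurine between genotypes and the difference between responses all rest on the same 2 wild-type leonurine libraries. Where all genes were rescaled by median ratios, the median gene in the wild-type comparison moved from -0.12 to 0.00 and the passing genes split into 339 higher and 408 lower, beside 199 and 493 without rescaling. For leonurine in the labelled knockout the median moved from -0.19 to -0.01, with 116 higher and 91 lower beside 63 and 156. The difference between responses split into 370 positive and 225 negative beside 179 and 212. The count of passing members did not move under that scaling in any of the 5 comparisons.

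**Figure D2:**
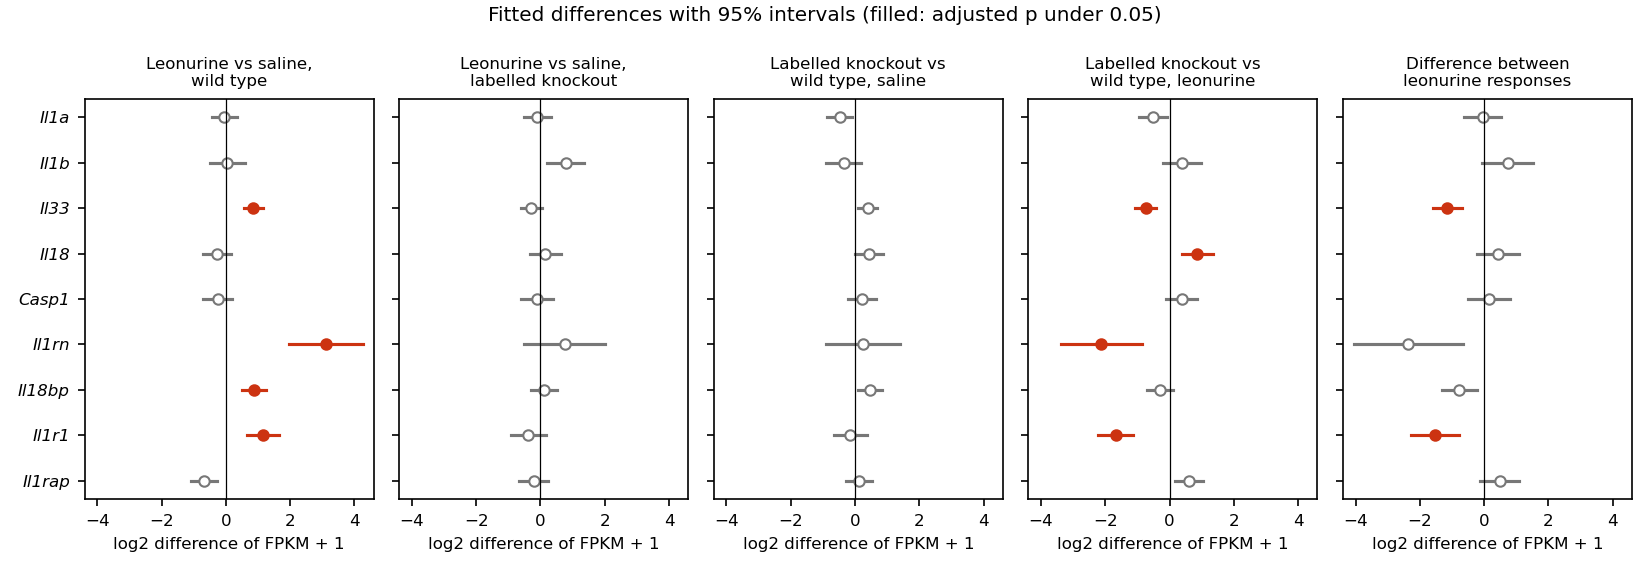
Log2 difference of FPKM + 1 (horizontal axis) for the 9 tested genes in the 5 comparisons, with 95% intervals from limma; filled red points have an adjusted p under 0.05. Il33, Il1rn, Il18bp and Il1r1 pass in the wild-type leonurine comparison, none passes in the labelled knockout, and Il33 and Il1r1 pass in the difference between responses.

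Il1rn, the receptor antagonist gene, lies on chromosome 2 (24336853 to 24351494, plus strand, GRCm38). It was measured at 2.45, 1.49 and 1.84 FPKM in the wild-type saline libraries, 54.4 and 10.4 in the wild-type leonurine libraries, 2.86 and 2.04 in the labelled knockout saline libraries, and 4.38 and 5.19 in the labelled knockout leonurine libraries. Both wild-type leonurine libraries were above every other library, and they differed from each other more than any other group's libraries did, with 5913 fragments in the one and 1143 in the other. The wild-type leonurine mean was 16.8 times the saline mean, and the log2 difference was 3.12 ± 0.51 (SE; limma, adjusted p = 0.011). Without the first leonurine library it was 1.98 and without the second 4.26. Each of these fits leaves a single library in that group, so the spread within it is not measured. The leonurine libraries of the labelled knockout also lay above the saline ones, with a ratio of means of 1.95, but the log2 difference of 0.75 ± 0.56 did not pass (adjusted p = 0.44). Under leonurine the labelled knockout was lower than wild type by a log2 difference of -2.12 ± 0.56 (limma, adjusted p = 0.0377). That difference was -0.99 without the first wild-type leonurine library and -3.26 without the second, again with a single library left in that group. It no longer passed without any 1 wild-type saline (0.0563 to 0.0627), labelled knockout saline (0.0556 and 0.0558) or labelled knockout leonurine library (0.0866 and 0.165). The difference between the responses was -2.36 ± 0.755 (adjusted p = 0.116). It was -1.23 without the first wild-type leonurine library and -3.50 without the second, where the spread within that group was not measured.

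Il18bp, which encodes the soluble trap for interleukin-18, lies on chromosome 7 (102014885 to 102018690, minus strand). Its levels were 4.56, 5.68 and 4.51 FPKM in wild-type saline, 8.94 and 10.6 in wild-type leonurine, 6.17 and 8.24 in labelled knockout saline, and 7.25 and 8.22 in labelled knockout leonurine liver. The wild-type leonurine libraries were the 2 highest of the 9, and the wild-type saline libraries the 3 lowest. The log2 difference with leonurine in wild type was 0.87 ± 0.16 (limma, adjusted p = 0.0193), a ratio of means of 1.99. It no longer passed without the first (0.0592) or the third (0.08) wild-type saline library or without the second leonurine library (0.137). The labelled knockout libraries overlapped between treatments, with a log2 difference of 0.10. Under saline the labelled knockout lay above wild type without overlap, a log2 difference of 0.46 that did not pass (adjusted p = 0.307). The difference between responses, -0.77, did not pass either (adjusted p = 0.116). Numa1 overlaps Il18bp on the other strand, and whether the counting used strand is unknown here. Numa1 lay between 6.57 and 10.5 FPKM and passed in no comparison.

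Il1r1, the receptor chain that carries the signal, lies on chromosome 1 (40225080 to 40317257, plus strand). It stood at 18.9, 14.4 and 13.9 FPKM in wild-type saline, 38.5 and 33.7 in wild-type leonurine, 15.2 and 12.9 in labelled knockout saline, and 8.07 and 13.8 in labelled knockout leonurine liver. The wild-type leonurine libraries were again alone at the top, and those 2 libraries differed little. With leonurine in wild type the log2 difference was 1.16 ± 0.22 (limma, adjusted p = 0.0208), a ratio of means of 2.3. It did not pass without the second (0.085) or the third (0.0808) wild-type saline library, nor without the second leonurine library (0.0839). Treatments overlapped in the labelled knockout, and the log2 difference of -0.37 (95% interval -0.93 to 0.18) did not pass. Under leonurine the labelled knockout was lower than wild type by a log2 difference of -1.68 ± 0.245 (limma, adjusted p = 0.00406), a ratio of means of 0.303. With a single library left out that difference ran from -2.03 to -1.32, including fits that leave a single library in a group. The difference between the responses was -1.53 ± 0.33 (limma, adjusted p = 0.0388). It lost its call without any single library other than the first wild-type saline or the second labelled knockout leonurine library, with adjusted p from 0.0575 to 0.12, and was -1.18 without the first labelled knockout leonurine library.

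Il1rap, the accessory chain that Il1r1 needs, lies on chromosome 16 (26581704 to 26730117, plus strand). Its levels were 9.03, 11.9 and 9.52 FPKM in wild-type saline, 7.18 and 4.77 in wild-type leonurine, 11.4 and 10.7 in labelled knockout saline, and 9.004 and 9.80 in labelled knockout leonurine liver. Here the wild-type leonurine libraries were the 2 lowest of the 9. The log2 difference in wild type was -0.69 ± 0.18, just outside the threshold (limma, adjusted p = 0.0527). It was -0.94 without the first leonurine library, which leaves a single library in that group. It passed where only genes with a mean of at least 5 FPKM were tested (limma, adjusted p = 0.0382). Under leonurine the difference between genotypes was 0.60 (limma, adjusted p = 0.0818), and without the first wild-type leonurine library 0.85. The leonurine difference of Il1rap in the labelled knockout was -0.21, which did not pass.

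Il1r2, the decoy receptor and neighbour of Il1r1 on chromosome 1 (40074079 to 40125231, plus strand), was near the limit of detection. It had 0.169, 0.0701 and 0.187 FPKM in wild-type saline, 0.453 and 0.364 in wild-type leonurine, 0.0733 and 0.113 in labelled knockout saline, and 0.0202 and 0.191 in labelled knockout leonurine liver. These values stand for 7 to 18 fragments in wild-type saline, 47 and 38 in wild-type leonurine, 7 and 11 in labelled knockout saline and 2 and 19 in labelled knockout leonurine libraries. The wild-type leonurine libraries were the 2 highest. Exact Poisson 95% intervals, which cover counting error only, ran from 26.9 to 52.2 fragments for the lower of them and from 11.4 to 29.7 for the highest of the other 7 libraries by FPKM. Without the filter, the wild-type log2 difference was 0.30 (limma, adjusted p = 0.0998).

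Il33, which encodes the alarmin ligand of ST2, lies on chromosome 19 (29925114 to 29960718, plus strand). It was measured at 1.04, 0.909 and 0.736 FPKM in wild-type saline, 2.38 and 2.44 in wild-type leonurine, 1.40 and 1.60 in labelled knockout saline, and 0.961 and 1.13 in labelled knockout leonurine liver. The leonurine libraries were above saline in wild type and below saline in the labelled knockout, with no overlap in either. Of all tested genes 12.8% were above without overlap in wild type and 40.8% below in the labelled knockout. In wild type the log2 difference was 0.85 ± 0.13 (limma, adjusted p = 0.00987), a ratio of means of 2.69. It did not pass without the second leonurine library (0.0595). In the labelled knockout the log2 difference of -0.29 did not pass (adjusted p = 0.267). The difference between the responses, -1.14 ± 0.197, did pass (limma, adjusted p = 0.0177). It moved just outside the threshold, to adjusted p from 0.0505 to 0.0568, without any of 4 libraries, namely the second or the third wild-type saline and the first library of either labelled knockout group. Under leonurine the labelled knockout was lower by -0.74 ± 0.145 (limma, adjusted p = 0.0129), which did not pass without the second wild-type leonurine (0.0572) or the first labelled knockout leonurine library (0.0767). Under saline it lay higher, by 0.40, without passing (adjusted p = 0.28). The receptor for this ligand, Il1rl1 (ST2), did not exceed 0.0148 FPKM in any library.

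Il1a, the gene of interleukin-1α, lies on chromosome 2 (129299610 to 129309972, minus strand). Its levels were 3.21, 3.37 and 2.94 FPKM in wild-type saline, 3.82 and 2.32 in wild-type leonurine, 2.29 and 1.73 in labelled knockout saline, and 1.78 and 1.82 in labelled knockout leonurine liver. The treatments overlapped in both genotypes, while all 4 labelled knockout libraries were below all 5 wild-type libraries. The nearest, at 2.29 and 2.32 FPKM, held 161 and 179 fragments. Their exact Poisson 95% intervals overlapped (137.1 to 187.9 and 153.7 to 207.2). Of all tested genes 11.1% were lower without overlap in the labelled knockout under saline and 26.4% under leonurine. In wild type the log2 difference with leonurine was -0.06 (95% interval -0.45 to 0.33). Between genotypes it was -0.48 under saline (adjusted p = 0.315) and -0.52 under leonurine (adjusted p = 0.11), neither of which passed. With a library left out the latter ran from -0.78 to -0.25.

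Il1b, the gene of interleukin-1β, lies beside Il1a on chromosome 2 (129364570 to 129371139, minus strand). It had 1.11, 2.06 and 0.736 FPKM in wild-type saline, 1.16 and 1.45 in wild-type leonurine, 0.971 and 0.548 in labelled knockout saline, and 1.63 and 2.41 in labelled knockout leonurine liver. The wild-type leonurine libraries lay inside the saline range, and the saline libraries of that genotype spanned most of the gene's whole range. The log2 difference in wild type was 0.04 (95% interval -0.50 to 0.58), which leaves room for a change of that size in either direction. In the labelled knockout the leonurine libraries were above the saline ones, with a ratio of means of 2.66. That log2 difference, 0.78 ± 0.26, was the only one among the members with an unadjusted p under 0.05 (0.0151) and did not pass (limma, adjusted p = 0.14). The difference between responses was 0.74 (adjusted p = 0.283). Libraries held 27 to 122 Il1b fragments, so counting error weighs on these values.

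Il18 lies on chromosome 9 (50554827 to 50581840, plus strand). Its levels were 3.42, 3.86 and 3.30 FPKM in wild-type saline, 3.10 and 2.39 in wild-type leonurine, 4.61 and 5.62 in labelled knockout saline, and 7.46 and 4.39 in labelled knockout leonurine liver. All 4 labelled knockout libraries were above all 5 wild-type libraries, the nearest at 4.39 and 3.86 FPKM. Of all tested genes 27.6% were higher without overlap in the labelled knockout under saline and 25.6% under leonurine. Under leonurine the labelled knockout was higher by a log2 difference of 0.86 ± 0.216 (limma, adjusted p = 0.0325), a ratio of means of 2.16. It did not pass without any 1 of the 3 wild-type saline libraries (0.0534 to 0.0586), without the second wild-type leonurine library (0.159) or without the first labelled knockout leonurine library (0.53, adjusted p = 0.171). Under saline the difference of 0.43 did not pass (adjusted p = 0.392), and in neither genotype did leonurine (-0.28 in wild type and 0.15 in the labelled knockout). Bco2, a carotenoid-cleaving enzyme gene, overlaps Il18 on the other strand and was also higher in the labelled knockout under leonurine, by 1.24 (limma, adjusted p = 0.0127); its part in the Il18 value was not tested.

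Casp1, the gene of caspase-1, lies on chromosome 9 (5298517 to 5307265, plus strand). It had 1.12, 1.35 and 1.67 FPKM in wild-type saline, 1.33 and 0.677 in wild-type leonurine, 1.52 and 2.02 in labelled knockout saline, and 1.96 and 1.22 in labelled knockout leonurine liver. The groups overlapped in both leonurine comparisons. Its log2 differences ran from -0.26 for leonurine in wild type to 0.38 for genotype under leonurine, and none passed.

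Ratios between members of a pair in the same library do not depend on how the library was scaled. The antagonist to ligand ratio, Il1rn over the sum of Il1a and Il1b in FPKM, was 0.568, 0.275 and 0.501 in wild-type saline, 10.9 and 2.76 in wild-type leonurine, 0.877 and 0.896 in labelled knockout saline, and 1.28 and 1.23 in labelled knockout leonurine liver. The antagonist transcript was below the ligands in all saline libraries of both genotypes and above them in all 4 leonurine libraries. Il18bp over Il18 was 1.34, 1.47 and 1.37 in wild-type saline, 2.88 and 4.46 in wild-type leonurine, 1.34 and 1.47 in labelled knockout saline, and 0.971 and 1.87 in labelled knockout leonurine liver. This ratio separated the wild-type leonurine libraries from all others, while the saline libraries of the 2 genotypes covered the same range. Il1r1 over Il1rap was 2.09, 1.21 and 1.46 in wild-type saline, 5.36 and 7.07 in wild-type leonurine, 1.34 and 1.21 in labelled knockout saline, and 0.897 and 1.41 in labelled knockout leonurine liver. Of the ligands, Il1a exceeded Il1b in every library except the second labelled knockout leonurine library, where the ratio was 0.755. These ratios were not tested.

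**Figure D3:**
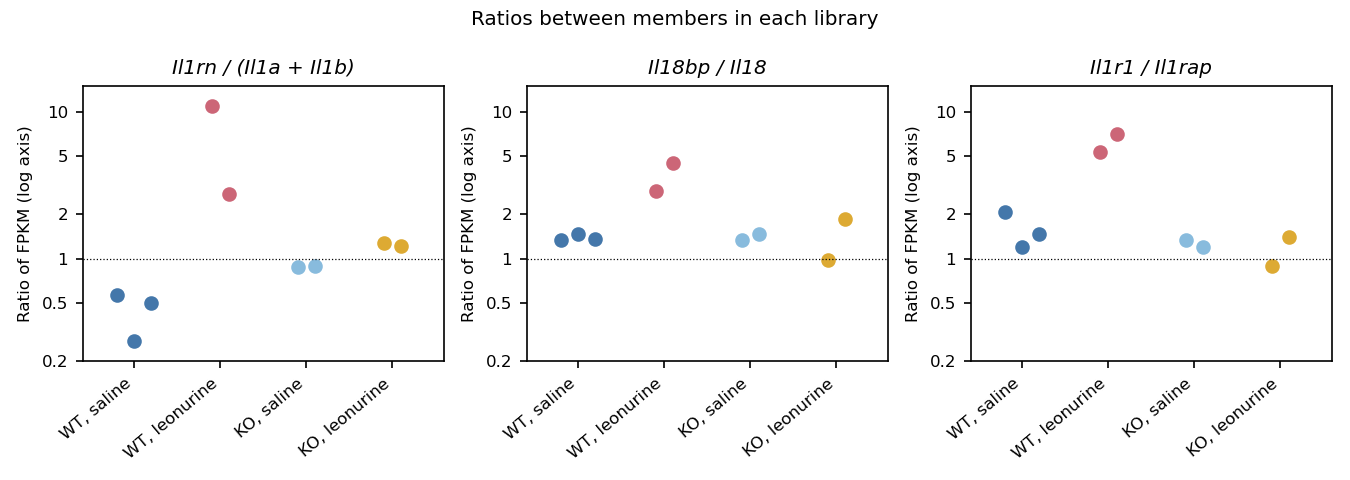
Ratio of FPKM between members in each library (log axes, dotted line at 1) for Il1rn over Il1a plus Il1b, Il18bp over Il18, and Il1r1 over Il1rap; KO stands for the labelled Adipor2 knockout. The 2 wild-type leonurine libraries are highest in all 3 panels.

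Over the 9 libraries, Pearson's r of log2(FPKM + 1) between members is given as a description. It was 0.81 for Il33 and Il18bp and also for Il18 and Casp1, and 0.80 for Il33 and Il1r1. Il33 and Il1rn gave 0.77, Il1rn and Il1r1 0.74, and Il18 and Il1r1 -0.84. For Il33, Il18bp, Il1rn and Il1r1 the wild-type leonurine libraries were the highest of the 9. Il1rn and Il1b, the antagonist and a ligand it competes with, gave 0.12. The libraries share groups and depth, so these values carry no p. The genes most like Il1rn by the same measure were Slc37a1 (0.979), Ifitm6 (0.954), the leukocyte adhesion gene Icam1 (0.930) and Cntnap1 (0.927). Icam1 ranged from 6.37 to 56.3 FPKM, with a median of 7.32. Those most like Il1r1 were Isyna1 (0.973), Pnrc1 (0.969), the cytokine receptor chain Csf2rb (0.969) and Ccdc120 (0.968). For Il1b the highest values were lower, led by Ntn4 (0.882), the fatty acid transporter Cd36 (0.799), Arrdc4 (0.784) and Mvd (0.763). Those most like Casp1 were Fam149b (0.974), Setd3 (0.962), Mcoln1 (0.960) and Eefsec (0.954).

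Of the remaining ligands of the interleukin-1 family only Il1f9 was in the table, at most 0.251 FPKM. Of 7 other receptor genes 5 were in the table and only Sigirr, an inhibitory receptor of the family, passed the filter, at 7.24 to 13.1 FPKM, with no call. All 20 genes of the signalling route from Myd88 to NF-kB were tested. In wild type with leonurine 1 of 20 was lower and none higher, beside 4.72% lower and 1.9% higher of all tested genes, with a median of 0.08 beside -0.12. That gene was Ikbkg, the regulatory subunit of the IkB kinase, at 8.95, 11.2 and 11.7 FPKM in wild-type saline and 5.87 and 6.31 in wild-type leonurine liver. It differed by -0.70 ± 0.16 (limma, adjusted p = 0.038), and its 2 leonurine libraries were below the 3 saline libraries. It did not pass without the second (0.141) or the third (0.138) saline library or without either leonurine library (0.0796 and 0.154).

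Under leonurine 2 of the 20 signalling genes were lower in the labelled knockout, beside 5.25% of all tested genes, and none was higher, beside 6.99%. Their median was -0.28, beside 0.01. Tnfaip3, an NF-kB target that restrains the pathway, was at 6.93 and 2.12 FPKM in wild type and 0.706 and 0.864 in the labelled knockout (-1.48, adjusted p = 0.0381). Tab2, an adaptor of the kinase TAK1, was at 10.2 and 14.3 against 5.66 and 7.12 (-0.83, adjusted p = 0.0224). The groups did not overlap for either gene, but Tab2 did not pass without the second wild-type leonurine library (-0.60, adjusted p = 0.116) or the first labelled knockout leonurine library (0.131). Tnfaip3 did not pass without the first wild-type leonurine library (-0.81, adjusted p = 0.118), either labelled knockout leonurine library (0.163 and 0.0872) or any 1 wild-type saline library (0.0545 to 0.0633). No signalling gene passed for leonurine in the labelled knockout, under saline or in the difference between responses, where 5, 1 and 4 of 20 had an unadjusted p under 0.05, beside 22.4%, 13.2% and 20.5% of all tested genes.

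Of 14 inflammasome and pyroptosis genes 7 passed the filter, and the sensor Nlrp3 and the adaptor Pycard were not among them, at 0.25 to 0.39 and 0.216 to 0.747 FPKM. Only Nlrp12, a member of the sensor family known in mice as a regulator of NF-kB signalling, was called. With leonurine in wild type this was 1 of 7 higher, beside 1.9% of all tested genes. For genotype under leonurine it was 1 of 7 lower, beside 5.25%, and for the difference between responses 1 of 7 negative, beside 2.03%. It had 3.51, 2.28 and 3.65 FPKM in wild-type saline, 10.3 and 13.4 in wild-type leonurine, 5.83 and 3.19 in labelled knockout saline, and 2.26 and 3.34 in labelled knockout leonurine liver. Like Il1r1, it stood alone in the wild-type leonurine libraries. It rose by 1.64 ± 0.25 in wild type (limma, adjusted p = 0.00914), was lower by -1.76 in the labelled knockout under leonurine (0.00522), and differed between responses by -2.15 (0.0175). Without the second wild-type leonurine library the first and last of these did not pass (0.0707 and 0.0516), and the last did not pass without the first library of either labelled knockout group (0.0548 and 0.0556).

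Markers of other cells moved with some of these results. Summed FPKM of 12 neutrophil markers was 49.6, 12.8 and 10.7 in wild-type saline, 156 and 66.8 in wild-type leonurine, 15.4 and 7.08 in labelled knockout saline, and 27.7 and 67.9 in labelled knockout leonurine liver. Of these, 8 passed the filter, but Ngp, Ltf and Camp reached 1 FPKM in leonurine libraries alone and Mmp8 in the 2 wild-type leonurine libraries alone, so their differences between treatments are given as levels, with no test. Ngp, a granule protein gene, was at 0.215 to 0.531 FPKM in wild-type saline, 10.3 and 5.25 in wild-type leonurine, 0.0241 and 0.498 in labelled knockout saline, and 2.12 and 6.68 in labelled knockout leonurine liver. Mmp8, the neutrophil collagenase gene, was at 1.80 and 1.34 FPKM in wild-type leonurine liver and at most 0.784 elsewhere. Csf3r was the only tested marker with a negative log2 difference for leonurine in wild type, -0.24, which did not pass. It was at 1.72, 1.05 and 0.885 FPKM with saline and at 1.125 and 0.625 with leonurine. Most of the highest sum, in the first wild-type leonurine library, was S100a8 and S100a9, at 58.4 and 68.1 FPKM. S100a8, S100a9, Csf3r and Retnlg, the tested markers not limited in this way, gave no call in any comparison. The defining markers Ly6g, Camp, Ltf, Mpo and Elane were at 0 in at least 1 library. The library with the highest sum was also the highest in Il1a, Il1rn, Il1r1 and Il1r2. In the second wild-type leonurine and second labelled knockout leonurine libraries the sums were 66.8 and 67.9. Il1rn was at 10.4 and 5.19 FPKM there, and Il1r1 at 33.7 and 13.8. Single markers differed between those libraries, with Mmp8 at 1.34 and 0.251 FPKM and Csf3r at 0.625 and 2.16. The part of neutrophils in the values of the members was not tested.

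**Figure D4:**
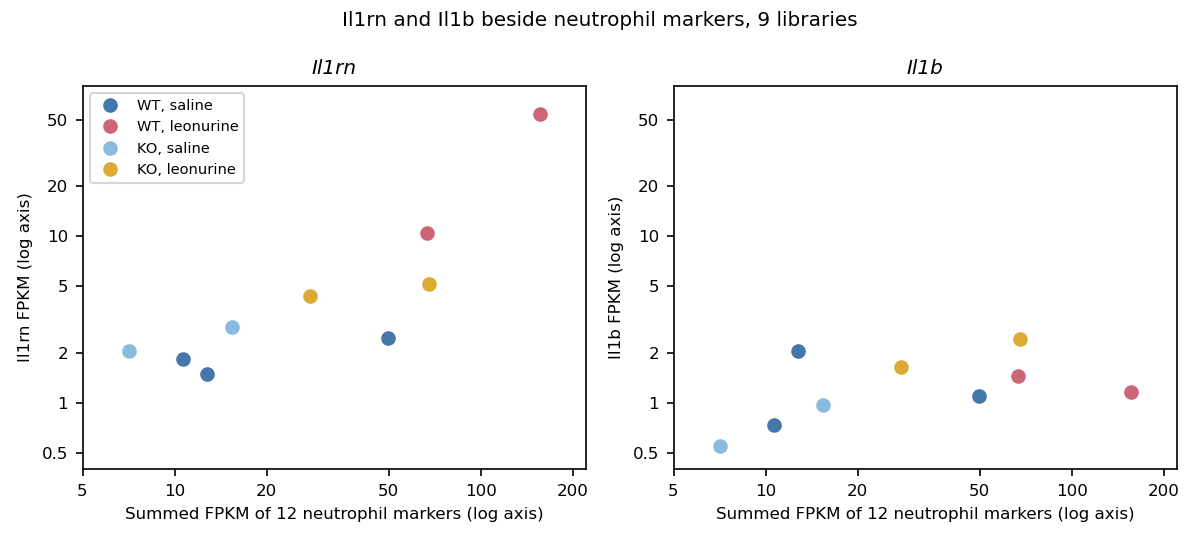
FPKM of Il1rn and Il1b (vertical, log axes) against the summed FPKM of 12 neutrophil markers (horizontal, log axes) in 9 libraries coloured by group; KO stands for the labelled Adipor2 knockout. The wild-type leonurine libraries hold the 2 highest Il1rn values, at sums of 66.8 and 156, while Il1b stays between 0.548 and 2.41 over the same range.

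Kupffer cell markers, those of the resident macrophages, gave no call among 10 genes in any comparison, beside 0.0191% to 12.2% of all tested genes. Their sums were 298.5 to 561 FPKM. Monocyte and recruited macrophage markers summed to 203 to 270 FPKM in 7 libraries and to 361 and 409 in the labelled knockout leonurine libraries, but 163 to 289 FPKM of each sum was F10, the gene of coagulation factor X, which hepatocytes also make. Without F10, a choice made after its values were seen, the sums were 67.2, 83.1 and 72.1 in wild-type saline, 64.2 and 30.6 in wild-type leonurine, 67.8 and 71.9 in labelled knockout saline, and 71.7 and 150 in labelled knockout leonurine liver. The second labelled knockout leonurine library then stood above the rest, and the first lay among the saline libraries. Lyz2, the lysozyme gene that makes up most of that remainder, was at 67.9 and 144 FPKM in the labelled knockout leonurine libraries and at 54.2 and 22.5 in the wild-type ones. Other markers of the list did not move together in that second library. Ly6c2 was at its highest there (2.61 FPKM) and Trem2 at its lowest (0.257). Itgam, at 1.08 FPKM, lay below both wild-type leonurine libraries. Chil3 reached 1 FPKM in leonurine libraries alone, at 3.77 and 4.34 FPKM in wild type and 0.544 and 1.74 in the labelled knockout, and is given with no test. Endothelial markers summed to 85.7 to 117 FPKM, and 7 were tested. Lyve1 was higher and Oit3 lower with leonurine in wild type, beside 1.9% and 4.72% of all tested genes. Lyve1 was lower and Oit3 and Kdr higher in the labelled knockout under leonurine, beside 5.25% and 6.99%. Oit3 was also positive in the difference between responses, beside 1.71%. Stellate cell markers, 91.5 to 156 FPKM, gave no call among 7 tested, beside 0.0191% to 12.2% of all tested genes. Among cholangiocyte markers (42.9 to 153 FPKM) 3 were tested, and Epcam was at 0 in at least 1 library. Sox9 was higher with leonurine in wild type, beside 1.9% of all tested genes. It was lower in the labelled knockout under leonurine, beside 5.25%. Hepatocyte markers were lowest in the 2 wild-type leonurine libraries, at 58050 and 33900 FPKM. Ttr and Cyp2e1 were lower there, 2 of 7 tested, beside 4.72% of all tested genes. Ttr and Ass1 were higher in the labelled knockout under leonurine, 2 of 7, beside 6.99%. Markers of T and NK cells did not pass the filter, with sums of 3.32 and 3.75 FPKM in the labelled knockout leonurine libraries and 0.398 to 1.37 in the other 7. B cell markers did not pass it either, with sums of 0.838 and 0.122 in wild-type leonurine, 5.61 and 1.65 in labelled knockout leonurine and 1.16 to 2.22 in the saline libraries. Platelet markers summed to 1.02 to 3.22 FPKM, and only Pf4 passed the filter. Their part in the members' values was not tested.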

How the data were processed

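RNA was extracted from liver with TRIzol and sequenced after library preparation with the VAHTS Universal V6 kit, per the labels' protocols. FPKM values per gene for 9 libraries were deposited by the authors; the tools listed, per the submitters' processing notes, were HISAT2, HTSeq, fastp and R 3.2.0, with the mm10 build, and the annotation, strand setting and filters are unknown here. No numeric column was left unmatched to a library. FPKM values of all 16857 genes were whole multiples of a per-gene step (tolerance 0.0001), which gave fragments per gene and library. Genes with at least 1 FPKM in 2 or more libraries were tested with limma 3.58.1 in R 4.3.3 on log2(FPKM + 1), computed here from the deposited values. The fit had 1 mean per group over 9 libraries, 5 residual and 4.4 prior degrees of freedom, a trended prior and Benjamini-Hochberg adjustment over all tested genes, and a gene was called at an adjusted p under 0.05. Every adjusted p printed comes from that fit or its named alternative. The limma fit and the recovery of fragments were tested on simulated data. The closest pair of libraries differed by a chi-square of 31.8 per degree of freedom, so none was counted as a duplicate. Alternatives were a pseudocount of 0.1 or 0.5, no filter, a mean of at least 5 FPKM, median-ratio scaling, quantile normalization, array weights, a replicate block, only the groups compared, leaving out both labelled knockout leonurine libraries, and leaving out each library. Coordinates are from GENCODE M21 on GRCm38, and promoters from RefSeq. Named genes were the 10 members, every called gene of the pathway lists (at most 4 per list and comparison, by the smallest p), the 4 tested named genes most correlated with Il1rn, Il1b, Il1r1 and Casp1, and label checks. Members and lists were chosen with earlier results of these data known. Python 3.11.15, NumPy 2.4.6, SciPy 1.17.1, pandas 2.3.3 and matplotlib 3.10.9 were used.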

Additional observations from a re-analysis of the deposited data

Results flagged for a closer look

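The responses of Il1r1 and Il33 to leonurine differed between wild type and the labelled knockout in the main fit of that difference itself. For Il1r1 it was -1.53 ± 0.33 on the log2 scale (limma, adjusted p = 0.0388), from 1.16 in wild type and -0.37 in the labelled knockout. For Il33 it was -1.14 ± 0.197 (limma, adjusted p = 0.0177), from 0.85 and -0.29. With a library left out they ran from -1.89 to -1.18 for Il1r1 and from -1.2 to -1.08 for Il33. Both lost their call with the replicate block. Il1r1 lost it without any single library other than the first wild-type saline or the second labelled knockout leonurine library. Il33 lost it without the second or the third wild-type saline library or the first library of either labelled knockout group. Sex, by the Y-linked transcripts, moved with the labelled knockout leonurine libraries, so sex and group cannot be told apart in these differences.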

How the results depend on the processing

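Of the members' results under the alternatives, 713 kept their direction and side of the threshold, 52 lost a call, 6 gained one and 23, none of them called, changed sign. The count of called members in wild type with leonurine, 4 in the report, was 1 with no filter and 1 to 5 with a library left out. For genotype under leonurine it was 4, and 2 with no filter, 2 at a mean of at least 5 FPKM, 1 with array weights, 1 with only the groups compared, and 1 to 5 with a library left out. For the difference between responses it was 2, and 1 with no filter, 1 at a mean of at least 5 FPKM, 1 with array weights, and 0 to 2 with a library left out. The labelled knockout and saline comparisons stayed at 0 under all alternatives. A group reduced to 1 library was assumed to vary like the others. The replicate block, fitted although same-numbered libraries correlated only by 0.03 to 0.15 and so share only a number, gave 0 called members in wild type and 0 in the difference, an Il1b difference in wild type of -0.14, and an Il1a difference between responses of 0.00. Without both labelled knockout leonurine libraries the wild-type count stayed at 4. Over all genes, calls in wild type went from 692 to 202 with no filter, 75 with the block and 147 to 1351 with a library left out. In the labelled knockout they went from 219 to 136 at a mean of at least 5 FPKM, 124 with the block, 111 with array weights, 112 with only its groups and 92 to 317 with a library left out. Under saline they went from 2 to 1 at either other pseudocount and at a mean of at least 5 FPKM, 5 with quantile normalization, 0 with the block, 61 with only its groups, 0 without both labelled knockout leonurine libraries, and 0 to 18 with a library left out. For genotype under leonurine they went from 1280 to 593 with array weights, 303 with only its groups and 335 to 1554 with a library left out. For the difference they went from 391 to 133 with no filter, 595 with median ratios, 102 with the block, 209 with array weights and 108 to 829 with a library left out. Signs changed as follows. Il1a in wild type became 0.06 with median ratios and 0.02 with quantiles (-0.33 to 0.21 with a library left out), and Il1b there ranged from -0.14 to 0.27. In the labelled knockout Il1a became 0.05 and 0.07 (-0.23 to 0.04) and Casp1 0.03 and 0.07 (-0.31 to 0.10), while Il18 ranged from -0.18 to 0.47 and Il18bp from -0.08 to 0.28. In the difference Il1a became 0.05 with quantiles (-0.31 to 0.23), and Casp1 ranged from -0.08 to 0.39. The cause of these changes was not tested. Depth limits Il1r2, Il1b and Casp1 most, since their libraries held few fragments.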
